A study of Mus musculus with 8 samples.

Results

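The genes described here encode 10 antioxidant enzymes, namely Sod1, Sod2, Cat, Gpx1, Gpx2, Gpx4, Prdx1, Txnrd1, Nqo1 and Gclc. They were chosen by symbol from a table of 24013 mouse gene symbols, and all 10 were found. The levels of their messenger RNA come from RNA sequencing of sorted intestinal epithelial cells. Every mouse carried Lyz1CreER; R26R-tdT on a mixed C57/BL6 and 129 background, was 8 to 14 weeks old and had received 10 mg of tamoxifen once. Cre driven by the lysozyme gene Lyz1 switches on the red protein tdTomato in Paneth cells, the antimicrobial cells of the crypt base, and the label then passes to their descendants. The sort kept viable cells that stained for the epithelial protein EpCAM and not for the leukocyte protein CD45, and then split the tdTomato-positive cells by the surface protein CD24. The Paneth gate, CD24+, is represented by 2 libraries without irradiation and by 3 libraries taken 5 days after it. The derivative gate, CD24−, has 3 libraries, all taken 5 days after irradiation. Derivatives without irradiation were not analysed here, so setting derivatives against non-irradiated Paneth-gate cells mixes gate and irradiation. The radiation dose is not given in the sources used here, and no label says that libraries came from separate mice.

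Aerobic cells make superoxide, mainly in mitochondria, and a chain of enzymes clears it. Superoxide dismutases turn it into hydrogen peroxide. Catalase splits that into water and oxygen, while glutathione peroxidases and peroxiredoxins reduce it to water. Glutathione and thioredoxin supply the electrons to the peroxidases and peroxiredoxins, and the transcription factor NRF2 (gene Nfe2l2) is known to raise many of the genes when oxidants or electrophiles disable its inhibitor KEAP1. In the intestine Gpx2 is known as the gastrointestinal glutathione peroxidase and is found mostly in crypts.

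NRF2 binds the antioxidant response element, whose core is TGACNNNGC. Because most of the genes were higher together in one gate, the RefSeq windows from 250 bases before to 50 bases after their start sites were searched for it on both strands. Windows (build GRCm38.p6) were found for 9 of the 10 genes (not Gclc), 14 windows in all, since a gene can have several starts. The core was present in 3 of these 14 windows, 1 each for Prdx1, Txnrd1 and Sod1, and in 12.4% of all 32851 windows of this length. The TATA motif, TATAAA, was present in 3 of the 14 windows, 1 each for Prdx1, Nqo1 and Sod1, and in 13.6% of all windows. The stretches of 70 bases below are shown because they hold these matches. Capitals mark the antioxidant response core, which lies on the opposite strand in the first 3 sequences and so reads reversed, and the TATA motif in the fourth.
Prdx1 (chr4:116685435-116685504, + strand): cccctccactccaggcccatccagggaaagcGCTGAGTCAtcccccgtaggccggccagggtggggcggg
Txnrd1 (chr10:82859083-82859152, + strand): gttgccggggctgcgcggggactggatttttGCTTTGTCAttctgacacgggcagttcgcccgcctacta
Sod1 (chr16:90220675-90220744, + strand): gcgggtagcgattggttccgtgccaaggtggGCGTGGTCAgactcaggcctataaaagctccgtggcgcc
Nqo1 (chr8:107403206-107403275, − strand): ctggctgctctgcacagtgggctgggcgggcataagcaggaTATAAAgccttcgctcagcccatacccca
A match is only a run of letters, and Nqo1, Gpx1, Gpx2, Gpx4, Cat and Sod2 had no antioxidant response core within these windows.

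Levels are given as FPKM, the authors' measure of fragments, corrected for how long a transcript is and how deeply its library was sequenced. The sort markers followed the labels. Lyz1 stood at 19016 to 48893 FPKM in the CD24+ libraries and at 384 to 2576 in the CD24− libraries. Cd24a, which encodes CD24, stood at 621 to 750 and 37.4 to 117 FPKM. Ptprc, the CD45 gene, stayed at or below 0.539 FPKM in all 8 libraries. Summed FPKM of 48 Paneth cell products made up 77.8% to 88.0% of each CD24+ library and 8.71% to 17.6% of each CD24− library. Several of these, such as Reg3g and Guca2a, are not restricted to Paneth cells. Among the CD24+ libraries, non-irradiated replicate 1 had the largest Paneth share and the lowest median-of-ratios scaling factor, 0.528 against 0.859 to 0.993 in the others. Non-irradiated replicate 2 stood out by other measures. Its Lyz1 level was the lowest of the CD24+ libraries, at 19016 FPKM against 31456 to 48893. Its 20 enterocyte markers, genes of the absorptive cells, summed to 3172 FPKM against 731 to 1767. Its 14 stromal and blood cell markers summed to 54.6 FPKM against 1.99 to 10.9. Sequencing depth, approximated from the value of a single read in low genes, was 34800000 to 45200000 reads per library. The weakest member value then rested on about 178 reads, a rough figure that takes the median length of the annotated transcripts. Counting error was not compared with the spread between libraries.

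In the irradiated mice most antioxidant enzyme genes stood far higher in CD24− than in CD24+ cells. The gene of the lipid peroxide-reducing enzyme, Gpx4, was 7.01 times higher by group means, Nqo1 5.83 times, Cat 5.61 times and Gpx1 4.36 times. Prdx1, Sod1, Sod2 and Txnrd1 were 2.61 to 3.56 times higher. Gpx2 stood at similar, widely spread levels in both gates, at 1.14 times by group means, and Gclc came next, at 1.88 times. Of the 10 genes, 9 passed the test as higher and 0 as lower (limma, Benjamini-Hochberg adjusted p under 0.05 over 11190 genes). The gates differ widely as a whole, since 48.6% of all tested genes were called higher and 7.27% lower in CD24− cells (55.9% in all). Every CD24− library lay above every irradiated CD24+ library for 8 of the 10 genes and for 59.1% of all tested genes. The median log2 fold change was 1.70 over the 10 genes and 0.51 over all tested genes. Among the 7828 genes with at least 5 FPKM in at least 2 libraries, 59.7% were called higher and the median was 0.73. In bulk samples fewer cells of a type and less RNA per cell cannot be told apart.

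**Figure D1:**
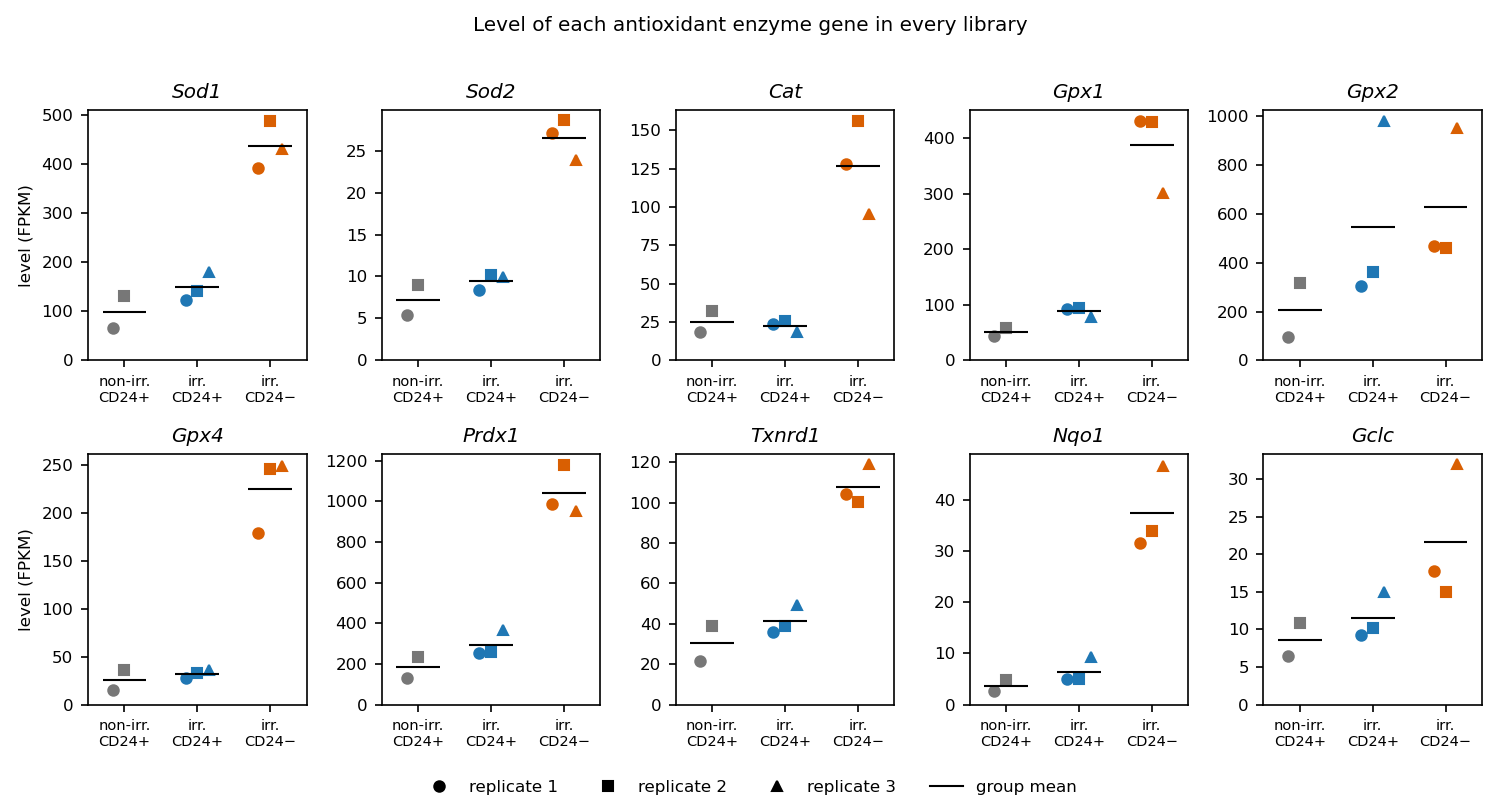
FPKM (linear axis from 0) of each of the 10 genes in the 8 libraries, with replicate numbers as symbols and group means as bars. For 8 genes all 3 CD24− libraries lie above every CD24+ library of irradiated mice. Gpx2 and Gclc are the genes whose irradiated gates overlap.

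Sod1 encodes the cytosolic copper-zinc superoxide dismutase. Its FPKM was 65.6 and 131 for the non-irradiated replicates, then 124, 142 and 181 for irradiated CD24+ replicates 1 to 3, and 392, 489 and 432 for CD24− replicates 1 to 3. The CD24− libraries lay above all others without overlap, a log2 fold change of 1.56 ± 0.31 (SE) against irradiated CD24+ cells (limma adjusted p = 0.00127). Sod2 encodes the manganese enzyme of the mitochondrial matrix and was the less abundant dismutase throughout. Its levels were 5.45 and 8.99 FPKM without irradiation, 8.37, 10.2 and 10.0 in irradiated CD24+ cells, and 27.1, 28.6 and 23.8 in CD24− cells. The groups again did not overlap between the irradiated gates (log2 fold change 1.39 ± 0.21 SE, limma adjusted p = 0.000222). The ratio of Sod1 to Sod2, which needs no scaling between libraries, was 14.8, 13.9 and 18.1 in irradiated CD24+ and 14.4, 17.1 and 18.1 in CD24− replicates. The log2 ratio differed by 0.084 and the gates overlapped (two-sided exact permutation p = 0.8). With 3 libraries against 3 this test cannot give a p below 0.1, so it cannot decide whether the 2 dismutase messages shifted against each other. By same-numbered pairs the log2 ratio differed by -0.036, 0.29 and -0.0032. Both dismutases need metals, and all 3 genes of a short list of metal handling, the copper chaperones Ccs and Atox1 and the manganese importer Slc39a14, were called higher in CD24− cells, beside 48.6% of all tested genes. Atox1 rose most of these, from 45.4 to 155.6 FPKM by group means.

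Cat encodes catalase, the peroxisomal enzyme that breaks down hydrogen peroxide. It stood at 18.3 and 32.3 FPKM without irradiation, at 23.5, 25.6 and 18.6 in irradiated CD24+ cells, and at 128, 156 and 95.5 in CD24− cells. Every CD24− library held at least 95.5 FPKM and no CD24+ library more than 32.3, a log2 fold change of 2.42 ± 0.27 (SE, limma adjusted p = 3.52e-05). Relative to Sod1 of the same library, Cat stood at 0.190, 0.180 and 0.103 in irradiated CD24+ and 0.327, 0.319 and 0.221 in CD24− cells. In non-irradiated CD24+ cells this ratio was 0.279 and 0.247, within the range of the CD24− libraries. The ratios of the irradiated gates did not overlap. With 3 libraries against 3 an exact two-sided permutation p cannot fall below 0.1, which is the value found here. It was 0.133 after Benjamini-Hochberg adjustment over the 8 ratios examined, and 0.25 by same-numbered pairs.

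Of the 3 glutathione peroxidase genes, Gpx1 and Gpx4 were called higher and Gpx2 was not. Gpx1 encodes the widespread cytosolic enzyme. It stood at 44.7 and 59.1 FPKM without irradiation, at 93.0, 94.8 and 79.1 in irradiated CD24+ cells, and at 431, 429 and 302 in CD24− cells (log2 fold change between the irradiated gates 2.096 ± 0.25 SE, limma adjusted p = 5.42e-05). Gpx4, whose product reduces lipid peroxides within membranes, stood at 15.4 and 36.3, at 27.5, 32.4 and 36.4, and at 179, 246 and 249 FPKM in the same order (2.76 ± 0.31 SE, limma adjusted p = 3.13e-05). For both genes the irradiated gates were widely apart.

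Gpx2, the gastrointestinal enzyme, did not show that separation. It stood at 95.9 and 318 FPKM without irradiation, at 304, 362 and 981 in irradiated CD24+ cells, and at 468, 460.4 and 954 in CD24− cells. Replicate 3 was far above the other libraries in both gates, and the gates overlapped. The log2 fold change was 0.31 ± 0.55 (SE), with a 95% confidence interval from -0.89 to 1.51 (limma adjusted p = 0.648), so the interval holds a moderate difference in either direction. Its sign turned to -0.26 with median-of-ratios scaling and to -0.47 per FPKM outside the Paneth list, and to -0.012 and -0.035 without irradiated CD24+ replicate 1 and CD24− replicate 3. As TPM, FPKM rescaled to an equal sum in each library, it was called higher (1.58, limma adjusted p = 0.0191). A pseudogene copy, Gpx2-ps1, was listed at 1.70 to 18.0 FPKM, and reads could be split between the copies.

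Gpx2 held a smaller share of the glutathione peroxidase message in CD24− cells than in irradiated CD24+ cells. It made up 71.6%, 74.0% and 89.5% of the summed FPKM of Gpx1, Gpx2 and Gpx4 in irradiated CD24+ replicates 1 to 3, and 43.4%, 40.5% and 63.4% in CD24− replicates 1 to 3. Gpx4 made up 6.48%, 6.63% and 3.32% of the same sum in irradiated CD24+ cells and 16.6%, 21.7% and 16.6% in CD24− cells. In non-irradiated cells the Gpx2 share was 61.5% and 76.9%, the first of them below that of CD24− replicate 3. The ratio of Gpx2 to Gpx1 was 3.26, 3.81 and 12.4 in irradiated CD24+ and 1.09, 1.07 and 3.16 in CD24− libraries. Without irradiation it was 2.14 and 5.37, which overlaps with the CD24− libraries. The irradiated gates did not overlap, with a log2 difference of -1.80. The exact two-sided permutation p was 0.1, the smallest possible when libraries are exchanged freely (0.133 adjusted over 8 ratios). By same-numbered pairs the log2 ratio differed by -1.59, -1.83 and -1.97, where the exact two-sided permutation p over 3 pairs was 0.25, the smallest they allow. A change of scaling between libraries cannot alter these shares.

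**Figure D2:**
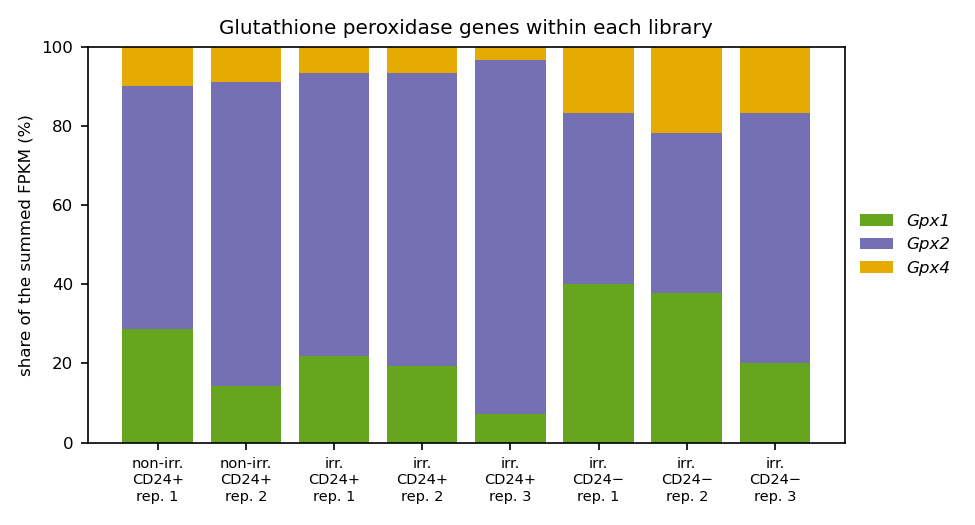
Share (%) of Gpx1, Gpx2 and Gpx4 in their summed FPKM in each of the 8 libraries, stacked to 100. Gpx2 holds 71.6% to 89.5% in irradiated CD24+ cells and 40.5% to 63.4% in CD24− cells, while Gpx4 holds at most 6.63% in the former and at least 16.6% in the latter.

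Prdx1 encodes a cytosolic peroxiredoxin, which reduces peroxides with electrons from thioredoxin, and was the first or second most abundant of the 10 genes in every library. It stood at 129 and 236 FPKM without irradiation, at 254, 256 and 365 in irradiated CD24+ cells, and at 985, 1178 and 952 in CD24− cells. The irradiated gates did not overlap (log2 fold change 1.84 ± 0.32 SE, limma adjusted p = 0.00059). Txnrd1 encodes the cytosolic selenoenzyme that recharges thioredoxin. Its levels were 21.5 and 39.0, then 35.8, 38.7 and 49.5, then 105, 100.2 and 119 FPKM (1.37 ± 0.26 SE, limma adjusted p = 0.000921). Txn1, the thioredoxin that passes electrons between these 2 enzymes, was higher as well, at 272 ± 29.5 FPKM in irradiated CD24+ and 1064.5 ± 126 in CD24− cells (SD, n = 3 each; limma adjusted p = 0.000301).

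Nqo1 encodes a quinone reductase widely used as a readout of NRF2. It was the least abundant member in the CD24+ libraries, at 2.68 and 4.74 FPKM without irradiation and 4.98, 5.04 and 9.19 with it. In CD24− cells it reached 31.5, 33.9 and 46.7 FPKM and passed both Sod2 and Gclc. The log2 fold change between the irradiated gates was 2.40 ± 0.27 (SE, limma adjusted p = 3.42e-05). Gclc encodes the catalytic subunit of the enzyme that begins glutathione synthesis. It stood at 6.48 and 10.8 FPKM without irradiation, at 9.26, 10.1 and 15.03 in irradiated CD24+ cells, and at 17.8, 14.9 and 32.0 in CD24− cells. CD24− replicate 2 lay just below CD24+ replicate 3, and the log2 fold change of 0.81 ± 0.30 (SE) passed narrowly (limma adjusted p = 0.0390). The Gclc call ended without irradiated CD24+ replicate 1 or 2 (adjusted p = 0.120 and 0.105) and without CD24− replicate 3 (0.142). It also ended with median-of-ratios scaling (0.414), per FPKM outside the Paneth list (0.835) and with no filter on low values (0.101). Over these and all other alternatives the Gclc log2 fold change ran from 0.077 to 2.004. Its partner Gclm, the modifier subunit, separated the gates clearly, at 11.1, 11.7 and 16.1 against 44.2, 50.1 and 51.5 FPKM (log2 fold change 1.85 ± 0.21 SE, limma adjusted p = 3.63e-05).

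**Figure D3:**
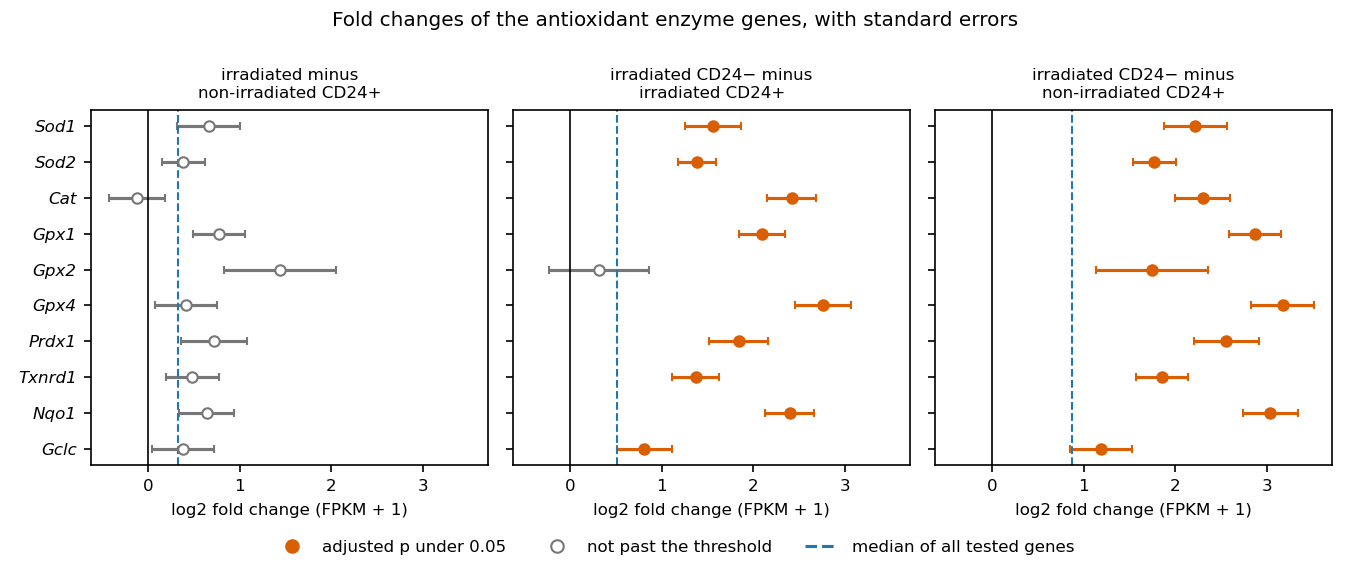
log2 fold change of FPKM + 1 for the 10 genes in the 3 comparisons, with SE bars, filled where the limma adjusted p was under 0.05. The dashed lines mark the median of all tested genes at 0.32, 0.51 and 0.88, and none of the 10 genes is filled in the first panel, 9 are in the second and 10 in the third.

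How libraries are scaled matters here, because Paneth products fill most of the CD24+ libraries. The median of all genes between the irradiated gates was 0.51 as deposited, 1.58 after rescaling to TPM, 0.027 with median-of-ratios factors and -0.19 per FPKM outside the Paneth list. Calls across the genome followed it, with 5439 genes higher and 813 lower as deposited, 10386 and 237 as TPM, 3589 and 2799 with median-of-ratios factors, and 2725 and 4016 per FPKM outside the Paneth list. A rescaling shifts all genes nearly alike, so the distance of the 10 genes' median from that of all genes, 1.19, 1.39, 1.11 and 1.11 in this order, is nearly fixed by construction. Sod1, Sod2, Cat, Gpx1, Gpx4, Prdx1, Txnrd1 and Nqo1 were called higher under every one of the 15 alternatives run for this comparison. With median-of-ratios factors their log2 fold changes came down but stayed positive, and 8 of the 10 genes were called higher where 32.2% of all genes were. Per FPKM outside the Paneth list 8 of 10 were called higher as well, against 21.6% of all genes.

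**Figure D4:**
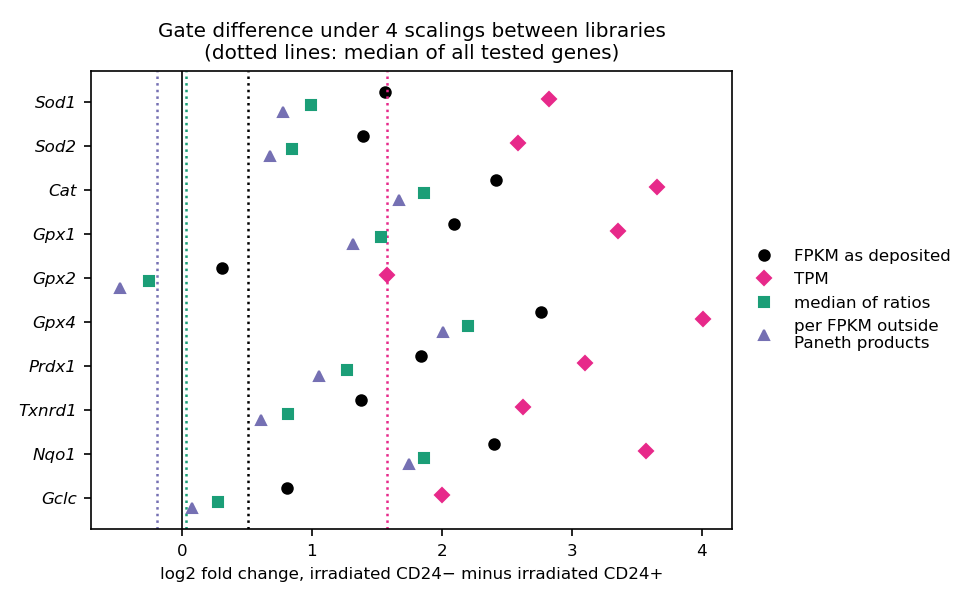
log2 fold change between the irradiated gates for the 10 genes under 4 scalings, with dotted lines at the median of all tested genes under each (0.51, 1.58, 0.027 and -0.19). Gpx2 lies at 0.31 as deposited and at -0.26 and -0.47 under the last 2 scalings, and Sod1, Sod2, Cat, Gpx1, Gpx4, Prdx1, Txnrd1 and Nqo1 lie right of 0 under all 4.

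Markers of some other cell types moved with the gate and others did not. The 20 enterocyte markers, genes of the absorptive cells, summed to 1178 to 1767 FPKM in irradiated CD24+ and 22163 to 46159 in CD24− libraries, and all 20 were called higher. The 12 crypt base columnar stem cell markers summed to 1092 to 1350 and 82.1 to 494 FPKM, and all 12 were called lower. The 10 goblet markers, of mucus-secreting cells, summed to 3530 to 4087 and 4923 to 9107 FPKM. Of these 3 were called higher and 4 lower, with a median log2 fold change of -0.14. Tuft cell markers (14 in the table) summed to 11.8 to 27.7 and 10.0 to 11.9 FPKM, which overlap narrowly, and of 11 tested 8 were called lower and 1 higher. Sums also overlapped between the gates for the 16 markers of proliferating cells, at 240 to 380 and 191 to 363 FPKM with 0 called. So did those of the 15 enteroendocrine markers, at 418 to 1556 and 562 to 3880 FPKM, with 2 called higher and 4 lower. Immune markers (13 in the table) summed to at most 6.10 FPKM in any library, with Ptprc near 0. Stromal and blood cell markers (14 in the table) summed to 1.99 to 10.9 and 4.14 to 44.9 FPKM, which overlap, and of 2 tested 0 were called. The part of these cell types in the antioxidant differences was not tested.

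Wider lists of redox genes are described by their counts beside the 48.6% of all genes called higher and 7.27% called lower between the irradiated gates. Of 28 tested genes of glutathione synthesis, recycling and transfer 23 were called higher and 0 lower, with a median log2 fold change of 1.81. Ggt1, which splits extracellular glutathione, stood at 7.38, 7.555 and 8.77 FPKM in irradiated CD24+ and 151, 236 and 284 in CD24− cells (4.61 ± 0.46 SE, limma adjusted p = 1.68e-05). Gsta1, a glutathione transferase with close relatives that may share its reads, rose by 4.30 ± 0.63 on the log2 scale (limma adjusted p = 0.000193). Gsr, which regenerates reduced glutathione, rose from 32.5 to 101.2 FPKM by group means (1.61 ± 0.31 SE, limma adjusted p = 0.0012). The cystine carrier gene Slc7a11 did not reach the level required for testing.

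Of 6 other peroxide-handling genes tested, 4 were called higher and 0 lower. Prdx5 and Prdx6, further peroxiredoxins, stood at 42.1 and 66.6 FPKM in irradiated CD24+ and at 382 and 217 in CD24− cells by group means. Gpx3, the secreted glutathione peroxidase, was at 3.96, 13.8 and 24.8 FPKM in irradiated CD24+ and 9.29, 15.6 and 47.2 in CD24− replicates 1 to 3. It did not pass (log2 fold change 0.71 ± 0.60 SE, limma adjusted p = 0.339), but each CD24− library lay above its same-numbered CD24+ library, and it passed with the replicate number as a block (adjusted p = 0.0209, and 0.00615 with the 6 irradiated libraries alone) and as TPM (0.00836). The value was 0.048 without CD24+ replicate 1, 0.080 without CD24− replicate 3, 0.19 with median-of-ratios scaling and -0.010 per FPKM outside the Paneth list. It was 1.24 without CD24+ replicate 3 and 1.19 without CD24− replicate 1 (adjusted p = 0.0832 and 0.118). In the thioredoxin and glutaredoxin list 10 of 16 tested were called higher and 1 lower. Glrx, a glutaredoxin, and Srxn1, which repairs over-oxidised peroxiredoxin, rose by 2.78 ± 0.28 and 2.76 ± 0.36 on the log2 scale (limma adjusted p = 1.74e-05 and 9.75e-05). Sesn3, a sestrin, was the gene called lower there, with a log2 fold change of -0.67.

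Among 9 NRF2 regulators 6 were called higher and 0 lower. Nfe2l2 itself stood at 31.0, 31.8 and 27.2 FPKM in irradiated CD24+ and 133, 126 and 119 in CD24− cells (2.04 ± 0.24 SE, limma adjusted p = 4.34e-05). Keap1, its inhibitor, went from 6.17 to 12.0 FPKM by group means (0.86 ± 0.21 SE, limma adjusted p = 0.00433), and Mafk, a small Maf partner of NRF2, rose by 1.27 ± 0.25. Per FPKM outside the Paneth list Keap1 no longer passed (adjusted p = 0.331). Of 16 other tested NRF2 targets 10 were called higher and 1 lower. Ugdh, which makes UDP-glucuronate, and Cbr1, a carbonyl reductase, rose by 3.09 ± 0.35 and 2.94 ± 0.33 on the log2 scale. Hmox1, the heme oxygenase gene often used as an oxidative stress marker, stayed low, at 1.02, 1.07 and 1.93 FPKM in irradiated CD24+ and 0.642, 0.694 and 2.98 in CD24− cells (log2 fold change -0.05 ± 0.31 SE, limma adjusted p = 0.902). Abcc4, an efflux transporter, was the target called lower (-0.96).

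Enzymes that supply NADPH, the reductant behind both the glutathione and thioredoxin systems, had 9 of 12 genes called higher and 1 lower. Me1, the cytosolic malic enzyme, and Aldh1l1, a folate dehydrogenase, rose by 2.87 ± 0.45 and 2.62 ± 0.29. G6pdx, which opens the pentose phosphate pathway, was at 13.8, 15.1 and 27.4 against 34.1, 31.8 and 45.1 FPKM (0.99 ± 0.32 SE, limma adjusted p = 0.0205). Its call ended with median-of-ratios scaling (adjusted p = 0.168), per FPKM outside the Paneth list (0.491), with no filter (0.0648), without irradiated CD24+ replicate 1 or 2 (0.0764 and 0.0714) and without CD24− replicate 3 (0.0544). Mthfd2, a mitochondrial folate enzyme, went the other way, from 22.3, 22.7 and 22.9 to 7.79, 6.42 and 6.67 FPKM (limma adjusted p = 2.97e-05, but 0.0823 as TPM).

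Gpx1, Gpx2, Gpx4 and Txnrd1 are selenoproteins. Of 16 other genes of selenoprotein synthesis and other selenoproteins that were tested, 7 were called higher and 1 lower, with a median log2 fold change of 0.42, below that of all genes. Sepp1, the secreted selenium carrier, stood at 65.6, 69.3 and 91.8 FPKM in irradiated CD24+ and 1149, 1249 and 1331 in CD24− cells (4.03 ± 0.36 SE, limma adjusted p = 9.82e-06). Sepw1, a small selenoprotein, rose by 1.64 ± 0.27, while Selm, a selenoprotein of the endoplasmic reticulum, fell from 64.3 to 23.0 FPKM by group means (limma adjusted p = 0.000337, but 0.452 as TPM). Of 10 tested oxidant-producing enzymes 7 were called higher and 1 lower. Xdh, xanthine dehydrogenase, rose by 3.78 ± 0.46, and Duox2, the dual oxidase of the epithelial surface, stood at 5.80, 9.77 and 12.7 against 27.9, 20.2 and 61.5 FPKM (limma adjusted p = 0.00415, but 0.0678 per FPKM outside the Paneth list). Nox1, an epithelial NADPH oxidase, and Noxa1, its activator, had negative log2 fold changes of -0.80 ± 0.35 and -0.90 ± 0.35 (SE), as deposited. Noxa1 passed narrowly (limma adjusted p = 0.0465) and Nox1 did not (0.0751, but 0.0109 with the replicate number as a block), and both turned positive as TPM. The Noxa1 call ended without irradiated CD24+ replicate 2 or 3 (adjusted p = 0.142 and 0.0701) or CD24− replicate 3 (0.168), with no filter (0.129), with the smaller pseudocount (0.0529) and with only the 2 groups fitted (0.0502). Without irradiation Noxa1 stood at 5.41 and 10.2 FPKM, within its CD24− range of 4.26 to 12.4. Nox1 stood at 1.95 and 1.61 FPKM without irradiation, below every CD24− library. It stood at 4.51, 4.36 and 15.1 FPKM in irradiated CD24+ and 3.88, 3.54 and 3.08 in CD24− cells. Its value rested on CD24+ replicate 3, without which it was -0.28 (adjusted p = 0.303), and Nox1 was called lower without CD24+ replicate 1 or 2 (0.0302 and 0.0303), with median-of-ratios scaling (0.0261) and per FPKM outside the Paneth list (0.0132).

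**Figure D5:**
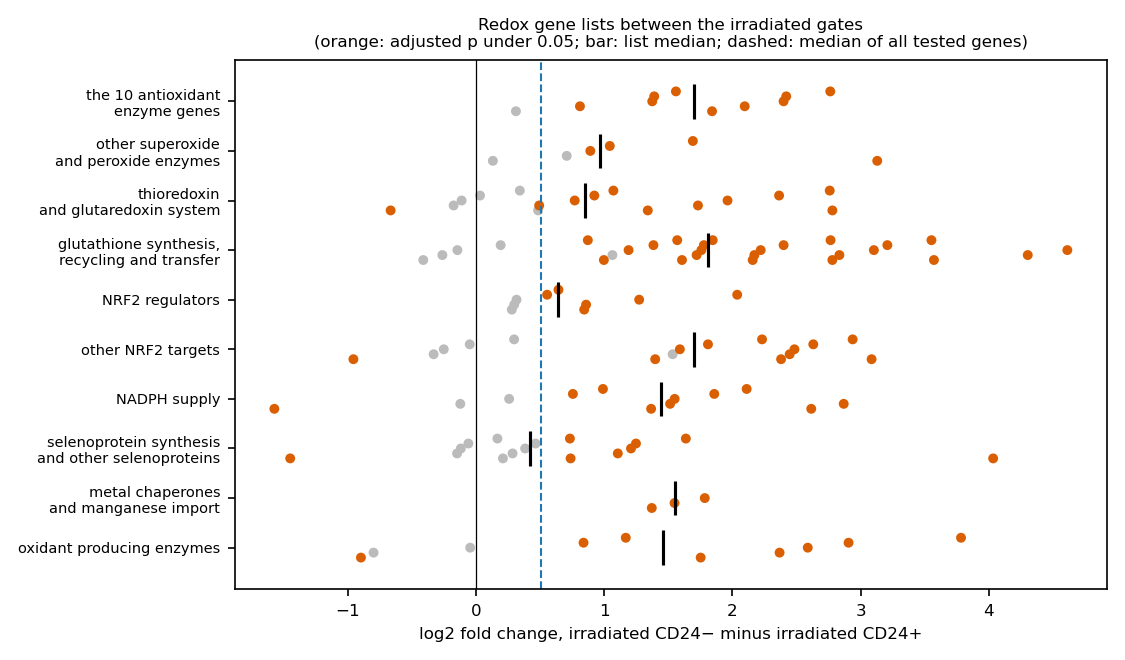
log2 fold change of FPKM + 1 between the irradiated gates for each tested gene of 9 redox lists and the 10 antioxidant enzyme genes (top row), orange where the limma adjusted p was under 0.05. List medians (bars) run from 0.42 for selenoproteins to 1.81 for glutathione genes, beside 0.51 for all genes (dashed line).

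Irradiation itself gave no antioxidant gene a call within the Paneth gate. Of the 10 genes 0 passed the test between irradiated and non-irradiated CD24+ cells, as did 0% of all 11190 genes by limma (2 of the 10 and 1424 of all genes had an unadjusted p under 0.05). Those 2 were Gpx1, with a log2 fold change of 0.77 (95% confidence interval 0.15 to 1.39), and Gpx2, with 1.44 (0.097 to 2.78), both at adjusted p = 0.348. Cat had the one negative value, -0.12 (-0.79 to 0.55), and turned positive as TPM, with the replicate block, and without non-irradiated replicate 2 or irradiated replicate 3. All 3 irradiated libraries lay above both non-irradiated libraries for Gpx1, Prdx1 and Nqo1, that is 3 of 10 genes against 34.2% of all tested genes. The median log2 fold change was 0.56 over the 10 genes and 0.32 over all. The Gpx2 value was 0.58 without non-irradiated replicate 1, 2.30 without non-irradiated replicate 2 and 0.92 without irradiated replicate 3. Within the non-irradiated pair replicate 1 was the lower for each of the 10 genes, with Gpx2 at 95.9 and 318 FPKM. Without replicate 2, which leaves replicate 1 as the lone control, 8 of the 10 genes and 5185 of all genes were called. Without replicate 1 the counts were 0 and 10, and Gpx4 turned to -0.18.

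Against non-irradiated CD24+ cells the CD24− derivatives differed in both gate and irradiation, and the CD24− libraries are those of the comparison above. All 10 genes were called higher, where 65.7% of all tested genes were called higher and 4.99% lower (70.7% in all). Every derivative library lay above both non-irradiated libraries for all 10, and for 70.1% of all tested genes. Their median log2 fold change was 2.26 against 0.88 for all genes. Nqo1 stood 10.1 times higher by group means (log2 fold change 3.04 ± 0.30 SE, limma adjusted p = 1.79e-05), Gpx4 8.70 times and Gpx1 7.46 times. Gpx2 was 3.04 times higher (1.75 ± 0.61 SE, limma adjusted p = 0.0239) and Gclc 2.498 times (1.19 ± 0.34 SE, limma adjusted p = 0.00852). Both of these calls ended with median-of-ratios scaling (adjusted p = 0.307 and 0.547), per FPKM outside the Paneth list (0.372 and 0.659) and without non-irradiated replicate 1 (0.293 and 0.106). The Gpx2 call also ended without CD24− replicate 3 (0.0501) and with no filter on low values (0.0808). The other 8 genes kept their calls under all 13 alternatives run.

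Among the irradiated libraries, those numbered 3 stood out for part of this group, a pattern picked after the values were seen and given without a test. Replicate 3 was the highest of its gate in both gates for 5 of the 10 genes, namely Gpx2, Gpx4, Txnrd1, Nqo1 and Gclc, and for 15.99% of all tested genes. Gpx2 in replicate 3 stood at 2.95 times the mean of replicates 1 and 2 in CD24+ cells and 2.05 times in CD24− cells, and Gclc at 1.55 and 1.95 times. Nqo1 was 1.83 and 1.43 times that mean, while the median tested gene was 1.03 and 0.913 times. Cat and Gpx1 went the other way, at 0.757 and 0.842 times in CD24+ and 0.672 and 0.703 times in CD24− cells. Of 116 tested genes of the 9 redox lists, 47 (40.5%) were highest in replicate 3 of both gates, against 2 in replicate 1 and 12 in replicate 2. Me1 was at 3.72 and 2.47 times the mean of the other replicates, Gsta1 at 2.58 and 2.94 times, Srxn1 at 1.68 and 1.91 times and Gsr at 1.51 and 1.54 times. Nfe2l2 was not among them, at 0.867 and 0.922 times. Marker lists also differed in these libraries. Enterocyte markers summed to 46159 FPKM in CD24− replicate 3 against 22163 and 29077 in replicates 1 and 2, and enteroendocrine markers to 3880 against 562 and 1655. Stromal and blood cell markers were higher there too, at 44.9 against 4.14 and 12.2 FPKM. Stem cell markers were lower there, at 82.1 against 494 and 351 FPKM, and goblet markers at 4923 against 9107 and 8599. Markers of proliferating cells were also lower, at 191 against 363 and 314 FPKM. The part of these differences in the pattern was not tested.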

How the data were processed

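RNA sequencing libraries (Illumina TruSeq kit, per the labels' protocols) were available for 8 samples in 3 groups of 2, 3 and 3. The deposited table holds the authors' FPKM, with 1 value for each gene symbol in each library. Tools and build named in the submitters' processing notes are TopHat2 2.1.0, StringTie 1.3.4 and mm9. The sources used here do not give the annotation or any filter. Repeated symbols were summed (24015 entries, 24013 symbols). Genes with at least 1 FPKM in at least 2 libraries were kept (11190), transformed as log2(FPKM + 1), which shrinks fold changes of low genes, and fitted over all 8 libraries with limma 3.58.1 in R 4.3.3 (trended eBayes). The threshold was 0.05 for p adjusted by Benjamini-Hochberg over all tested genes. SE is limma's moderated standard error. P-values measure the spread between these libraries, which may be technical. The fit was tested on simulated data with independent noise in each library, which held no pairing and no shift of most genes.

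The members, 9 redox lists and 9 marker lists were chosen with earlier results of these data known. All 10 members were named in each comparison. From each redox list up to 2 called genes a direction with the largest change and at least 5 FPKM between the irradiated gates were named, plus 13 listed genes whatever their values. One gene this rule names is not reported here. Sesn3 and Abcc4 were added as single genes called lower, and Ccs as one of 3 in its list. Residuals of same-numbered irradiated CD24+ and CD24− libraries correlated across genes at r = 0.366, 0.231 and 0.402, and those of differently numbered ones at -0.381 to 0.0518. The numbers were therefore taken to pair these libraries. For non-irradiated and irradiated CD24+ libraries r was 0.232 and -0.0499. With only 2 non-irradiated libraries, residuals from their mean are exact opposites, so these 2 values cannot decide on pairing. These libraries were not taken as pairs. The replicate block over all 8 libraries still placed same-numbered libraries of every group in a shared block. Its values for irradiation therefore rest on a pairing that these correlations cannot show. No exon of another gene overlaps the 10 genes in GENCODE M21.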

Additional observations from a re-analysis of the deposited data

How the results depend on the processing

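The settings varied were the pseudocount (0.1), the filter on low values (none, or 5 FPKM), the scaling (3 others), fitting only the 2 groups compared, a replicate block, and leaving out each library in turn. A block with the 6 irradiated libraries alone and the ratio tests by pairs were added after seeing the data. Between irradiated and non-irradiated CD24+ cells the number of genes called was 0 with all libraries, 1 with no filter, 5 with median-of-ratios scaling, 17 with only the 2 groups and 92 with the replicate block, and it ran from 0 to 5185 on leaving out a library. Members called ran from 0 to 8. Between the irradiated gates TPM called 10623 genes in place of 6252, and leaving out a library gave 5064 to 5989. The replicate block called 6469 genes there, 7154 with the irradiated libraries alone, and changed no call of the 10 members in any comparison.

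Some signs turned. For irradiation Cat was 0.035 as TPM, 0.038 with the replicate block and -0.51 to 0.27 without single libraries, and Gpx4 was -0.18 to 1.01 without single libraries. With median-of-ratios scaling Sod2, Gpx4 and Gclc were -0.031, -0.037 and -0.042. Between the irradiated gates Gpx2 was -0.26 with median-of-ratios scaling, -0.47 per FPKM outside the Paneth list and -0.035 to 0.83 without single libraries. Gpx3 was -0.010 per FPKM outside the Paneth list, Noxa1, Hmox1 and Nox1 were 0.26, 0.66 and 0.25 as TPM, and Hmox1 was -0.47 to 0.17 without single libraries. The cause was not tested. A group left with a single library borrowed its spread from the other groups.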
